A study of Homo sapiens with 4 samples.

Results

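Wnt ligands, Dickkopf secreted inhibitors and Wnt target genes were followed in 2 human thyroid cancer cell lines with and without forced expression of CRABP1, the cytoplasmic retinoic acid binding protein. The 10 genes were chosen by name, with earlier results of these data known. They were the ligands WNT3, WNT5A, WNT5B, WNT7A and WNT7B, the inhibitors DKK1 and DKK3, and the target genes AXIN2, LEF1 and TCF7. All 10 symbols matched exactly 1 Ensembl identifier each among the 58884 of the deposited table. RNA was sequenced in 4 libraries, 1 per group: 8505C cells transfected with a CRABP1-overexpressing vector, 8505C cells with an empty vector, FTC-133 cells with the CRABP1 vector and FTC-133 cells with an empty vector. 8505C is an anaplastic and FTC-133 a follicular thyroid carcinoma line; the labels do not say whether transfected cells were clones or pools, or how long after transfection they were harvested.

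Wnt proteins are lipid-modified secreted ligands that bind Frizzled receptors. With the co-receptors LRP5 and LRP6 they stabilise beta-catenin, which joins TCF/LEF factors on DNA and switches on targets such as AXIN2, a scaffold that feeds back to degrade beta-catenin. WNT5A and WNT5B are best known for signalling without beta-catenin, and DKK1 blocks the beta-catenin branch by binding LRP5 and LRP6. Activation of the beta-catenin branch has been described in poorly differentiated and anaplastic thyroid carcinoma.

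About 19304250 reads lay behind the library of 8505C with CRABP1, 19174557 behind 8505C with vector, 20309248 behind FTC-133 with CRABP1 and 20331464 behind FTC-133 with vector. CRABP1 itself was at 537 TPM in 8505C with CRABP1 and 385 TPM in FTC-133 with CRABP1, and was listed at 0 in both vector libraries. Of 8 thyroid follicular markers, 2 reached 1 TPM in the 8505C libraries (NKX2-1 and HHEX) and 4 in the FTC-133 libraries (PAX8, FOXE1, NKX2-1 and HHEX); thyroglobulin (TG), TSHR and the iodide transporter SLC5A5 stayed below 1 TPM in all 4. Markers of other cell types separated the lines too, though members of a list did not move together. In both 8505C libraries the endothelial list was carried by CDH5 (97.9 and 103 TPM, against 0.125 and 0 TPM in FTC-133). PECAM1 was also higher in 8505C (2.19 and 3.68 TPM, against 1.44 and 1.76 TPM in FTC-133), while KDR and VWF were lower in both 8505C libraries than in both FTC-133 libraries. The leukocyte list was carried by CD14 (28.6 and 56.5 TPM in 8505C, against 0.345 and 0.669 TPM in FTC-133), while PTPRC did not exceed 0.194 TPM in any library. The epithelial list was carried by KRT8 and KRT18 and summed to 1365 and 1604 TPM in 8505C, against 167.5 and 169 TPM in FTC-133, while EPCAM and CDH1 were lower in 8505C. The fibroblast list, 71.9 and 55.0 TPM in 8505C against 352 and 614 TPM in FTC-133, was carried by COL1A1 and COL1A2 in FTC-133 and by COL3A1 in 8505C. These pairs of values are with CRABP1 and with vector in that order, and the part of these markers in the line differences below was not tested. Each group is a single library, so no spread between replicates exists within a line. Folds are therefore plain TPM ratios with a 95% Clopper-Pearson interval from recovered read numbers, which covers counting error only, and fewer expressing cells cannot be told apart from less RNA per cell.

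The lines differed in the make-up of their Wnt ligand transcripts. WNT5B and WNT7B were the leading ligands in 8505C, and WNT5A the leading one in FTC-133, whichever vector the cells carried. The 19 Wnt ligand genes summed to 78.3 TPM in 8505C with CRABP1 and 70.6 TPM in 8505C with vector, against 35.6 TPM in FTC-133 with CRABP1 and 43.6 TPM in FTC-133 with vector. WNT5B made up 56.8% and 45.3% of that sum in 8505C, and 15.7% and 19.1% in FTC-133, with CRABP1 and with vector in that order. WNT5A made up 3.06% and 8.36% in 8505C and 44.1% and 35.1% in FTC-133 in the same order.

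**Figure D1:**
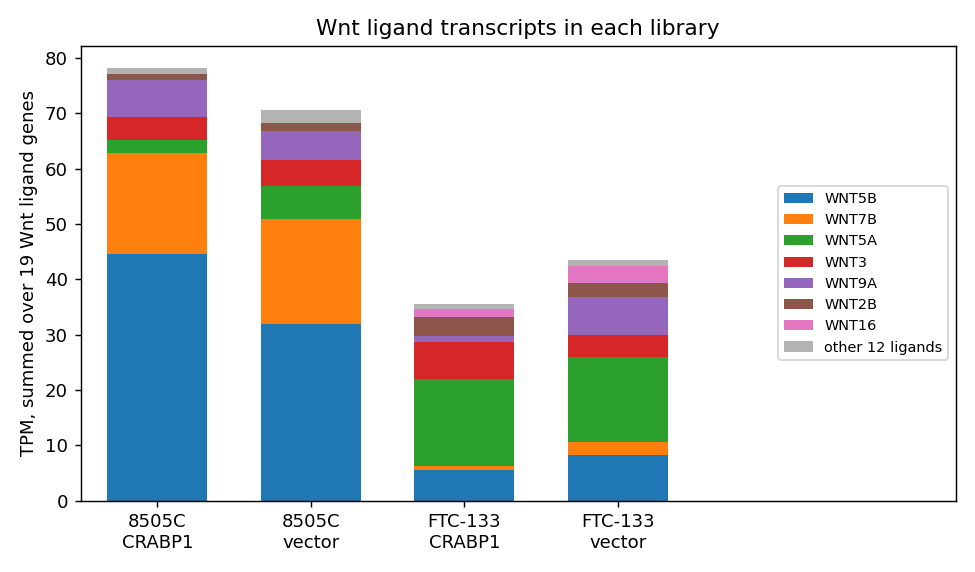
Stacked bars show TPM summed over the 19 Wnt ligand genes in each of the 4 libraries (x axis), with 7 ligands in colour and the other 12 in grey. WNT5B and WNT7B fill most of the 8505C bars (sums 78.3 and 70.6 TPM), and WNT5A is the largest piece of the FTC-133 bars (35.6 and 43.6 TPM).

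WNT5B (ENSG00000111186; GRCh38, chromosome 12, 1529891 to 1647243, plus strand) was at 44.5 TPM in 8505C with CRABP1, 32.0 TPM in 8505C with vector, 5.59 TPM in FTC-133 with CRABP1 and 8.32 TPM in FTC-133 with vector. Both 8505C libraries were above both FTC-133 libraries. The ratio of 8505C to FTC-133 was 7.97 (95% interval 6.61 to 9.66) with CRABP1 and 3.85 (3.28 to 4.53) with vector. Limma was fitted over all 4 libraries, with the vector and CRABP1 libraries of a line standing in for its replicates. Its error comes from how far the response to CRABP1 differed between the lines, moderated over genes. By this fit WNT5B was higher in 8505C by 2.31 on the log2 scale (SE 0.282, adjusted p = 0.0139). CRABP1 went with opposite differences in the lines. In 8505C, WNT5B was 1.39-fold higher with CRABP1 than with vector (1.26 to 1.54), and in FTC-133 it was at 0.672 of the vector level (0.533 to 0.845); the difference between the lines could not be tested with these 4 libraries.

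WNT5A (ENSG00000114251; chromosome 3, 55465715 to 55490539, minus strand), the paralogue of WNT5B, had the reverse line pattern. Its levels were 2.40 TPM in 8505C with CRABP1, 5.90 TPM in 8505C with vector, 15.7 TPM in FTC-133 with CRABP1 and 15.3 TPM in FTC-133 with vector. The FTC-133 libraries were thus both above the 8505C libraries, and limma called WNT5A lower in 8505C (log2 difference -1.77, SE 0.321, adjusted p = 0.0283). WNT5A was also the member with the clearest difference between transfections in 8505C: it was 2.46-fold lower with CRABP1 than with vector (1.92 to 3.18), from about 90 and 222 reads. In FTC-133 the ratio of CRABP1 to vector was 1.03 (0.917 to 1.15). The TPM of WNT5B over that of WNT5A was 18.6 in 8505C with CRABP1 and 5.42 in 8505C with vector, against 0.356 in FTC-133 with CRABP1 and 0.544 in FTC-133 with vector.

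WNT7B (ENSG00000188064; chromosome 22, 45920362 to 45977129, minus strand), a ligand that can act through beta-catenin, had the widest range of the 10 genes, 3.52 on the log2(TPM + 1) scale. It was at 18.3 TPM in 8505C with CRABP1 and 19 TPM in 8505C with vector, against 0.746 TPM in FTC-133 with CRABP1 and 2.28 TPM in FTC-133 with vector. Both 8505C libraries were far above both FTC-133 libraries. The 8505C to FTC-133 ratio was 24.6 (15.6 to 40.3) with CRABP1 and 8.34 (6.37 to 10.96) with vector, and limma gave a log2 difference of 3.04 (SE 0.290, adjusted p = 0.00943). In FTC-133, WNT7B was 3.05-fold lower with CRABP1 (1.82 to 5.33), from about 20 reads with CRABP1 and 63 with vector. On the log2(TPM + 1) scale, which understates the change of low genes, this was -0.91 and short of 2-fold. In 8505C the ratio of CRABP1 to vector was 0.964 (0.848 to 1.10).

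WNT7A (ENSG00000154764; chromosome 3, 13816258 to 13880121, minus strand), the paralogue of WNT7B, was close to absent. About 2 reads fell on it in 8505C with CRABP1, 8 in 8505C with vector, 1 in FTC-133 with CRABP1 and 0 in FTC-133 with vector. Its highest level was 0.343 TPM, in 8505C with vector, and in FTC-133 with vector 0 reads leave room for a level of 0.120 TPM, that of 3 reads. The vector library of 8505C was at least 2.85-fold higher than that floor. In 8505C the ratio of CRABP1 to vector was 0.251 with an interval of 0.0259 to 1.26, so no difference was detectable at this depth.

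WNT3 (ENSG00000108379; chromosome 17, 46762506 to 46833154, minus strand), a ligand of the beta-catenin branch, was low in all libraries. It was at 4.11 TPM in 8505C with CRABP1, 4.61 TPM in 8505C with vector, 6.66 TPM in FTC-133 with CRABP1 and 3.96 TPM in FTC-133 with vector. The FTC-133 library with CRABP1 stood above the other 3. WNT3 was 1.68-fold higher with CRABP1 in FTC-133 (1.29 to 2.21), and had a ratio of 0.893 (0.659 to 1.19) in 8505C. With CRABP1 it was at 0.617 of the FTC-133 level in 8505C (0.469 to 0.805), and with vector the ratio of the lines was 1.16 (0.878 to 1.57). Limma did not call it between the lines (log2 difference -0.20, SE 0.283, adjusted p = 0.606), and the lines' ranges overlapped.

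**Figure D2:**
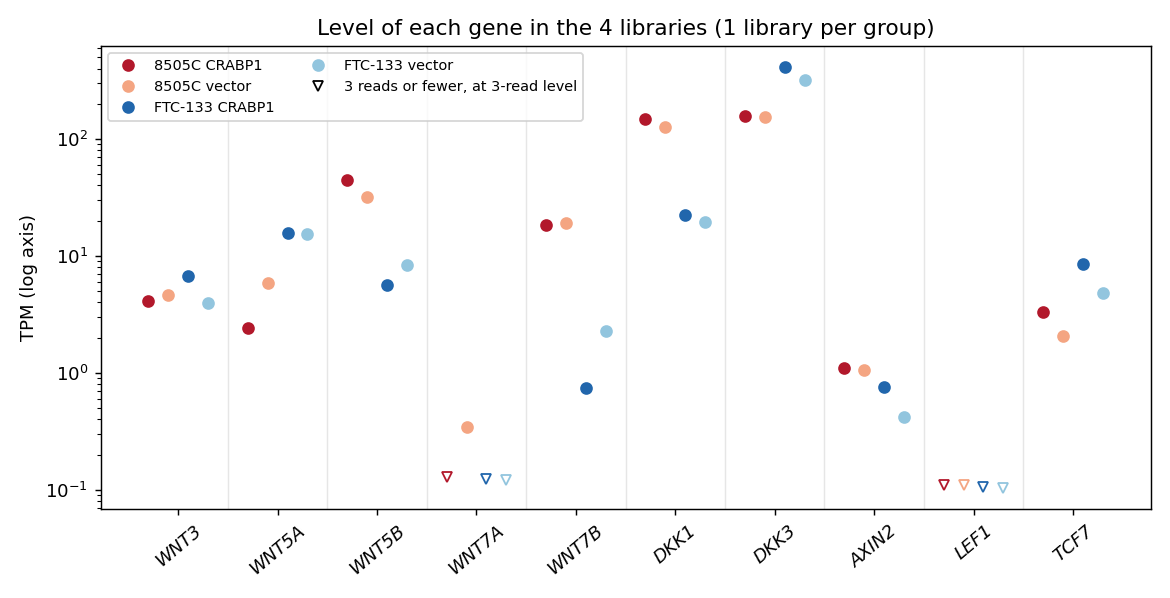
Points give the TPM of each of the 10 genes (x axis) in each library, on a log axis; open triangles mark libraries with 3 reads or fewer, drawn at the level of 3 reads. DKK1, WNT5B and WNT7B are higher in both 8505C libraries than in both FTC-133 libraries, and WNT5A, DKK3 and TCF7 are lower.

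The Dickkopf inhibitors were the most abundant of the 10 genes in every library. DKK1 (ENSG00000107984; chromosome 10, 52314296 to 52318042, plus strand) was at 148 TPM in 8505C with CRABP1, 127 TPM in 8505C with vector, 22.5 TPM in FTC-133 with CRABP1 and 19.6 TPM in FTC-133 with vector. The lines did not overlap, and the 8505C to FTC-133 ratio was much the same with either vector, 6.57 (5.77 to 7.52) with CRABP1 and 6.48 (5.65 to 7.48) with vector. The limma difference was 2.65 on the log2 scale (SE 0.0986, adjusted p = 0.00342). With CRABP1, DKK1 was 1.17-fold higher in 8505C (1.09 to 1.25) and had a ratio of 1.15 (0.961 to 1.38) in FTC-133, so the FTC-133 interval includes no difference.

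DKK3 (ENSG00000050165; chromosome 11, 11963106 to 12009769, minus strand), a divergent family member that is not a classical LRP6 antagonist, was at 157 TPM in 8505C with CRABP1, 153 TPM in 8505C with vector, 412 TPM in FTC-133 with CRABP1 and 317 TPM in FTC-133 with vector. It was lower in both 8505C libraries than in both FTC-133 libraries (limma log2 difference -1.22, SE 0.126, adjusted p = 0.0108). In FTC-133 it was 1.30-fold higher with CRABP1 (1.26 to 1.34), a narrow interval since about 11009 and 8737 reads lay behind it. Scaling moved this value by more than that interval, which covers counting error only. On the log2(TPM + 1) scale it was 0.377, and 0.313 with median-ratio scaling or 0.326 without mitochondrial genes. In 8505C the ratio of CRABP1 to vector was 1.03 (0.985 to 1.08). DKK3 and DKK1 were close to each other in 8505C and far apart in FTC-133: the TPM of DKK3 over that of DKK1 was 1.06 and 1.20 in 8505C, and 18.3 and 16.2 in FTC-133, with CRABP1 and with vector in that order.

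TCF7 (ENSG00000081059; chromosome 5, 134114711 to 134151865, plus strand) encodes TCF1, a DNA-binding partner of beta-catenin and itself a target of the pathway. It was at 3.28 TPM in 8505C with CRABP1, 2.05 TPM in 8505C with vector, 8.60 TPM in FTC-133 with CRABP1 and 4.80 TPM in FTC-133 with vector. TCF7 was the 1 member whose counting interval lay above 1 for CRABP1 against vector in both lines, with ratios of 1.61 (1.25 to 2.07) in 8505C and 1.79 (1.54 to 2.09) in FTC-133. By limma over both lines, TCF7 differed by 0.61 on the log2 scale with an SE of 0.221, which did not pass (adjusted p = 0.920). Between the lines TCF7 was lower in 8505C (log2 difference -1.05, SE 0.221, adjusted p = 0.0376). On the opposite strand the exons of SKP1, at 37.6 to 51.1 TPM, share 210 bases with those of TCF7. No strand setting is given in the sources used here, so reads in that stretch cannot be told apart.

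AXIN2 (ENSG00000168646; chromosome 17, 65528563 to 65561647, minus strand), the feedback scaffold often read as a gauge of beta-catenin signalling, was near 1 TPM or below. It was at 1.09 TPM in 8505C with CRABP1, 1.05 TPM in 8505C with vector, 0.761 TPM in FTC-133 with CRABP1 and 0.422 TPM in FTC-133 with vector, from about 29, 28, 21 and 12 reads. The 8505C libraries were both above the FTC-133 ones. In 8505C the ratio of CRABP1 to vector was 1.04 (0.597 to 1.81), and in FTC-133 it was 1.81 (0.848 to 4.03), so neither difference was beyond counting error. With vector, AXIN2 was 2.50-fold higher in 8505C than in FTC-133 (1.23 to 5.39), and with CRABP1 the ratio was 1.44 (0.792 to 2.65). Another gene on the same strand, AC004805.1, shares 25.2% of the AXIN2 exon length and was listed at 0 in all 4 libraries; how shared reads were counted is not given in the sources used here. LEF1 (ENSG00000138795; chromosome 4, 108047545 to 108168956, minus strand), a DNA-binding partner of beta-catenin like TCF7, had about 2, 1, 0 and 1 reads in the same order and never exceeded 0.0736 TPM. Its ratio of CRABP1 to vector in 8505C, 2.01, had an interval of 0.104 to 118, so nothing can be said of a difference at this depth.

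Within each library the order of the 10 levels was DKK3 and then DKK1 at the top, and AXIN2, WNT7A and LEF1 among the last 4. In 8505C with CRABP1 the 95% exact Poisson intervals of the levels of DKK3 and DKK1 overlapped, as did those of WNT3 and TCF7, TCF7 and WNT5A, and WNT7A and LEF1. In 8505C with vector only the neighbours WNT5A and WNT3, and WNT7A and LEF1, overlapped. In FTC-133 with CRABP1 the overlapping neighbours were WNT3 and WNT5B, AXIN2 and WNT7B, and WNT7A and LEF1, and in FTC-133 with vector TCF7 and WNT3, and LEF1 and WNT7A.

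The DNA before the transcription starts of TCF7, WNT5A, WNT5B and DKK1 is shown because the WNT5 paralogues and DKK1 separated the lines, and TCF7 had a ratio of CRABP1 to vector above 1 in both lines, though it did not pass limma. Each window holds the 250 bases upstream of the most upstream RefSeq start (GRCh38.p14, 5′ to 3′ on the gene's strand): chr5:134115363-134115612 for TCF7, chr3:55487307-55487556 for WNT5A, chr12:1616806-1617055 for WNT5B and chr10:52314031-52314280 for DKK1. Capitals mark a match to any of 3 motifs searched on both strands.
TCF7: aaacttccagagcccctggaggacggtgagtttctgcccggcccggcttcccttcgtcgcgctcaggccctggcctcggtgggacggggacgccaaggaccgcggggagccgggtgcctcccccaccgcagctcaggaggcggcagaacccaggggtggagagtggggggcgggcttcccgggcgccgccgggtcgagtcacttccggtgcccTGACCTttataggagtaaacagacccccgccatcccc
WNT5A: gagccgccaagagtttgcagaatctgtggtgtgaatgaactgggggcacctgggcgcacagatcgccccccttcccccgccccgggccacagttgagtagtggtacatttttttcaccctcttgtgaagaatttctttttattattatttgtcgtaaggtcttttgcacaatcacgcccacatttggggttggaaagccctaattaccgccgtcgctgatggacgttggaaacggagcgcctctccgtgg
WNT5B: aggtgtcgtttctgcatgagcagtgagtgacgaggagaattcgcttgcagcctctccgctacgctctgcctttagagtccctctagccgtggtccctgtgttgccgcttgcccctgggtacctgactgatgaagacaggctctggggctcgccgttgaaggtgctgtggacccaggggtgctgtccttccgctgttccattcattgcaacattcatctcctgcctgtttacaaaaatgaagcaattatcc
DKK1: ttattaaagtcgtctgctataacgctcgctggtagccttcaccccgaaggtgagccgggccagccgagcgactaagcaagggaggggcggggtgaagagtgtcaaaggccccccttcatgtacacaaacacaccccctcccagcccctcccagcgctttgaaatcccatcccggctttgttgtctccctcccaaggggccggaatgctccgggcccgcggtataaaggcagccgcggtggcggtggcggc

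The motifs were the TCF/LEF core CTTTGAT, the nuclear receptor half-site AGGTCA, which retinoic acid receptors use in repeats, and the AP-1 site TGANTCA. Windows were listed for 7 of the 10 genes, 10 windows in all, and those of WNT7B, DKK3 and AXIN2 were not analysed here. Of these, 1 held a match: the half-site in reverse, starting 37 bases before the RefSeq start of TCF7 used here. Among all 35116 windows, 2.26% held the TCF/LEF core, 12.1% the half-site and 6.57% the AP-1 site. A match or its absence is a description of these letters alone.

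For CRABP1 against vector in FTC-133, 7 of the 10 members passed the filter, a mean of 1 TPM or more over the pair of libraries. Of these, 0 reached 2-fold on the log2(TPM + 1) scale, where 10.9% of all 19899 genes did, 6.02% higher and 4.92% lower, and 3.52% of protein-coding genes backed by 20 reads or more. In 8505C, 8 members passed and 1, WNT5A (log2 ratio -1.02), was lower by at least 2-fold, where 4.07% of 17561 genes were lower, 3.7% higher and 7.77% either, and 0.741% of protein-coding genes backed by 20 reads or more either. By counting intervals, 3 members were higher with CRABP1 in FTC-133 (WNT3, DKK3 and TCF7) and 2 lower (WNT5B and WNT7B). In 8505C 3 were higher by these intervals (WNT5B, DKK1 and TCF7) and 1 lower (WNT5A). The share of all genes with an interval off 1 was not computed, so these counts are not a result about the members as a set. Over both lines 0 of 7 members tested passed limma at an adjusted p of 0.05, and 0 had an unadjusted p under 0.05. Among all 19513 genes 0.00512%, CRABP1 alone, passed and 4.73% had an unadjusted p under 0.05.

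**Figure D3:**
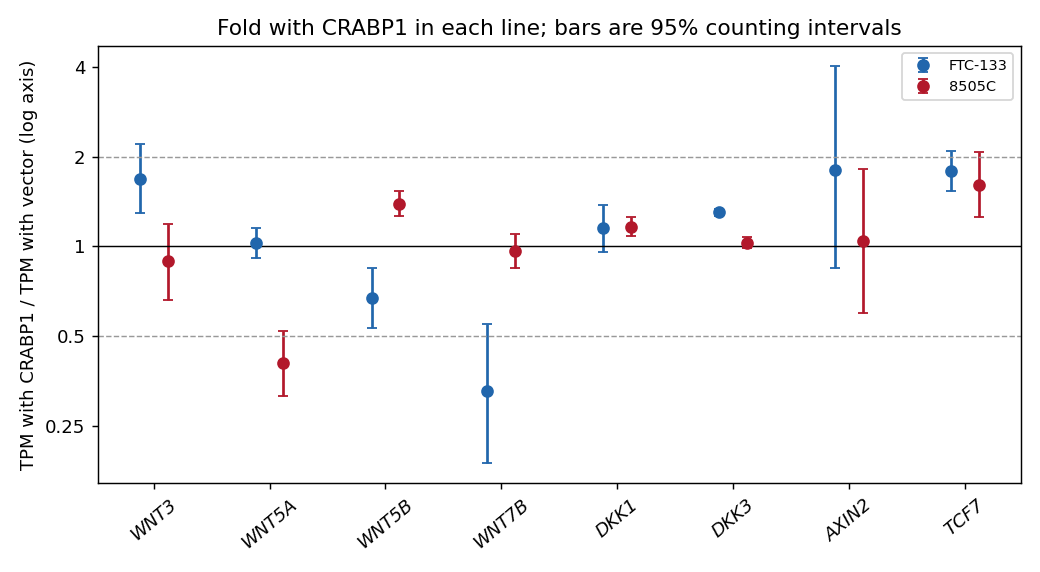
Points are TPM with CRABP1 over TPM with vector in FTC-133 (blue) and 8505C (red), on a log axis with dashed lines at 2-fold, for the 8 genes that passed the filter in a line; bars are 95% counting intervals. TCF7 lies above 1 in both lines (1.79 and 1.61), WNT5B lies on opposite sides (0.672 and 1.39), and the WNT7B and WNT5A points below 0.5 come from FTC-133 and 8505C in that order.

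Between the lines, 8505C against FTC-133, 6 of the 7 members tested passed limma: WNT5B, WNT7B and DKK1 higher and WNT5A, DKK3 and TCF7 lower. Members were chosen with earlier results of these data known, so this count is not a test of the members as a set. Differences between these lines were common, with 35.2% of all genes passing, 13.0% higher and 22.2% lower. The share rose with the level: among 12323 genes averaging 5 TPM or more, 46.2% passed. At that filter 33 of 57 pathway genes passed, members included. This imbalance depended on the scaling: 2542 genes were higher and 4335 lower, and with median-ratio scaling 3226 were higher and 3391 lower. By the 2-fold rule with CRABP1, 3 of 7 members were higher and 3 lower, where 34.3% of genes were either, 11.3% higher and 23.0% lower, and 26.7% of protein-coding genes backed by 20 reads or more either. With vector, 3 members were higher and 2 lower, where 33.7% of genes were either, 12.1% higher and 21.6% lower, and 26.5% of those protein-coding genes either. TCF7 was at a log2 ratio of -0.93 with vector.

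Genes with a similar pattern over the 4 libraries were sought for the 2 members with the widest range, by the Euclidean distance of centred log2(TPM + 1) values among 10569 protein-coding genes that averaged 5 TPM or more. ITGB2 (distance 0.18), PODXL2 (0.18) and FGF13 (0.20) were nearest to WNT7B. MSH6 (0.09), NEK7 (0.09) and DUSP1 (0.10) were nearest to DKK1, and the level of DUSP1 was 605 TPM in 8505C with CRABP1 and 553 TPM in 8505C with vector, against 97.4 TPM in FTC-133 with CRABP1 and 90.6 TPM in FTC-133 with vector. With 4 points, such likeness is a description only.

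The other pathway genes came from lists by role, 109 genes in all with the 10 members. These lists were chosen with earlier results of these data known, so their counts beside all-gene shares are a description only. On the log2(TPM + 1) scale, 72 passed the filter in FTC-133, all with 20 reads or more. With CRABP1, 1 was at least 2-fold higher (6.02% of all genes) and 3 were lower (4.92% of all genes). Of protein-coding genes backed by 20 reads or more, 3.52% were past 2-fold either way. The median log2 ratio was 0.05 against 0.06 over all genes. In 8505C, 65 passed, all with 20 reads or more. Of these 0 were at least 2-fold higher (3.7% of all genes) and 1, the member WNT5A, was lower (4.07% of all genes). The share of protein-coding genes backed by 20 reads or more was 0.741% either way. The median was 0.03 against 0.02 over all genes. By plain TPM ratios, RSPO3 (2.17), RSPO4 (2.07) and FZD3 (2.00) were also at least 2-fold higher in FTC-133, and WNT16 (2.21-fold) and WNT7B lower. The 4 genes past 2-fold on the log2(TPM + 1) scale in FTC-133 were the ligand WNT9A, the co-repressor TLE4 and the bone morphogenetic protein BMP4, which were lower, and the vasoconstrictor peptide gene EDN1, which was higher. WNT9A was at 1.14 TPM with CRABP1 and 6.97 TPM with vector in FTC-133 (6.14-fold lower, 3.95 to 9.81), and at 6.65 and 5.25 TPM in 8505C. The ligand WNT16 had 0 reads in both 8505C libraries and 1.45 and 3.21 TPM in FTC-133 with CRABP1 and with vector. The WNT9A difference was the largest ligand difference with CRABP1 among those that passed the filter. In FTC-133, BMP4 was 3.39-fold lower with CRABP1 (2.33 to 4.97) and TLE4 3.64-fold lower (2.63 to 5.11). In 8505C, BMP4 was 1.29-fold higher (1.19 to 1.39) and TLE4 1.19-fold higher (1.13 to 1.25). For EDN1 the ratio of CRABP1 to vector was 2.19 in FTC-133 (1.62 to 3.01) and 1.45 in 8505C (1.38 to 1.53).

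Receptor genes were compared next. In FTC-133, 7 of 12 measured receptor genes were above 0 and 5 below with CRABP1, against 11497 above and 8402 below among all 19899 genes. In 8505C 8 of 13 were above 0 and 5 below, against 9604 above and 7957 below among all 17561 genes. Of the receptor genes 0 reached 2-fold on the log2(TPM + 1) scale in either line, where 10.9% of all genes in FTC-133 and 7.77% in 8505C did. FZD6, the most abundant receptor, had 161 and 145 TPM in 8505C and 95.7 and 112 TPM in FTC-133, with CRABP1 and with vector in that order, followed by the pseudokinases RYK and PTK7 at mean levels of 51.3 and 49.0 TPM. Between the lines, 6 of 13 receptors tested were higher in 8505C and 2 lower by limma, where 13.0% of all genes were higher and 22.2% lower. FZD1 was at 2.12 and 1.95 TPM in 8505C and at 38.4 and 63.7 TPM in FTC-133, with CRABP1 and with vector in that order (log2 difference -4.06, SE 0.253, adjusted p = 0.00545), and FZD7 was lower as well (-1.51, adjusted p = 0.00892). FZD8 (2.75, adjusted p = 0.0118), LRP5 (1.63, adjusted p = 0.0138) and FZD4 (1.49, adjusted p = 0.0091) were higher in 8505C by limma.

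Of the genes for ligand secretion 1 of 2 tested, and of those for receptor turnover 2 of 4 tested, were called between the lines by limma, against 35.2% of all genes. PORCN, the acyltransferase that lipidates Wnt ligands, was lower in 8505C by limma (log2 difference -1.41, SE 0.115, adjusted p = 0.00775), while the ligand carrier WLS, at a mean of 72.3 TPM, was not called. PORCN was at 0.752 of the vector level with CRABP1 in 8505C (0.621 to 0.911) and at 0.746 in FTC-133 (0.667 to 0.833). RSPO4, a secreted agonist that keeps Frizzled receptors at the surface, had 0 reads in both 8505C libraries and 21.4 and 10.3 TPM in FTC-133 with CRABP1 and with vector, at least 97.9-fold and 47.5-fold lower in 8505C than in FTC-133. Its paralogue RSPO3 was higher in 8505C (log2 difference 1.64, adjusted p = 0.0278), and the ubiquitin ligase gene RNF43, a Wnt target that removes Frizzled receptors, had 0 reads in 8505C and 1.19 and 2.15 TPM in FTC-133. The R-spondin receptor LGR4, at a mean of 38.9 TPM, and the ligase ZNRF3, at 7.78 TPM, were not called (adjusted p = 0.148 and 0.416).

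Among secreted inhibitors, SFRP1, which sequesters ligands, exceeded both Dickkopf genes in 8505C. It reached 1404 TPM in 8505C with CRABP1 and 1501 TPM in 8505C with vector, against 93.9 TPM in FTC-133 with CRABP1 and 103 TPM in FTC-133 with vector (log2 difference 3.87, SE 0.0943, adjusted p = 0.00336 by limma). FRZB, a related decoy, showed the opposite order and was lower in 8505C (-2.80, SE 0.329, adjusted p = 0.0130), with about 1 and 0 reads in 8505C and 131 and 84 in FTC-133. In the inhibitor list, 3 of 7 genes tested were higher in 8505C: DKK1, SFRP1 and KREMEN1, which encodes a membrane receptor and is not secreted. DKK3 and FRZB, 2 of 7, were lower, against 13.0% higher and 22.2% lower among all genes.

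In the cytoplasmic core, 2 of 15 genes tested were called between the lines by limma, against 35.2% of all genes: GSK3B, a kinase that marks beta-catenin for degradation, higher (log2 difference 1.14, adjusted p = 0.0112) and the scaffold AXIN1 lower (-0.60, adjusted p = 0.0403). CTNNB1, which encodes beta-catenin, was at 105 and 87.9 TPM in 8505C and at 102 and 123 TPM in FTC-133, with CRABP1 and with vector in that order, and the lines' ranges overlapped. The kinase CSNK1A1, which primes beta-catenin for GSK3B, averaged 88.2 TPM and was not called (0.16, adjusted p = 0.253). Nuclear factors were called in 3 of 12 cases higher and 4 lower, against 13.0% and 22.2% of all genes. The co-activators PYGO2, lower (log2 difference -0.72, adjusted p = 0.0221), and BCL9L, higher (0.69, adjusted p = 0.0387), were the most abundant, averaging 48.6 and 48.0 TPM. The co-repressors TLE3 and TLE4 went opposite ways: TLE3 was at 0.312 and 0.202 TPM in 8505C and 17.95 and 19.4 TPM in FTC-133 (log2 difference -3.97, adjusted p = 0.00495), and TLE4 was at 81.3 and 68.4 TPM in 8505C and 1.11 and 4.04 TPM in FTC-133 (4.54, adjusted p = 0.00888), again with CRABP1 first. Of 12 target genes tested, 5 were higher in 8505C (CCND1, MYC, BMP4, EDN1 and SOX9) and 3 lower (TCF7, TNFRSF19 and VEGFA), against the same background. EDN1 had the largest difference among them, 4.86 (SE 0.159, adjusted p = 0.00336). The cyclin gene CCND1 was at 632 and 522 TPM in 8505C and at 242 and 231 TPM in FTC-133, with CRABP1 and with vector in that order (1.28, adjusted p = 0.00805). The adhesion receptor gene CD44, averaging 233 TPM, was not called (0.29, adjusted p = 0.0888). VEGFA, the angiogenic growth factor gene, was at 48.4 and 56.2 TPM in 8505C and at 198 and 170.3 TPM in FTC-133 in the same order (-1.80, adjusted p = 0.00756). SOX9 (1.94, adjusted p = 0.00447) and TNFRSF19 (-2.73, adjusted p = 0.00792) differed by more than CCND1. Other signals regulate most of these target genes as well.

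**Figure D4:**
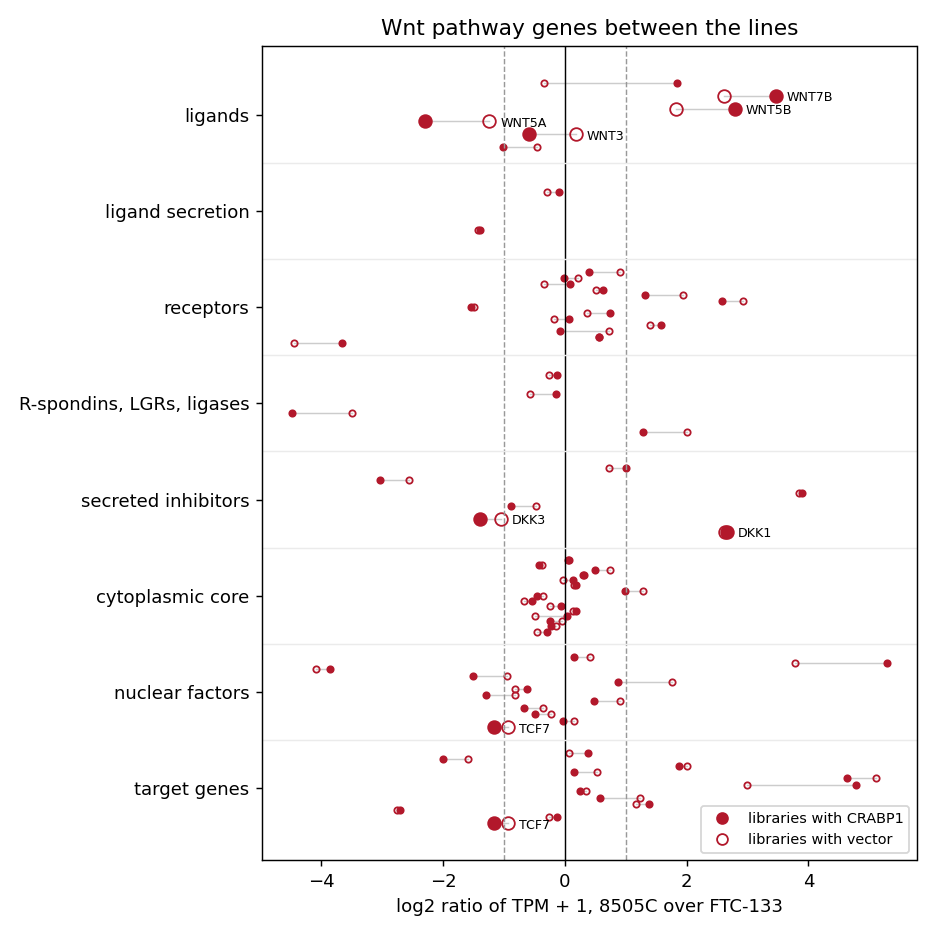
Each pair of points is 1 Wnt pathway gene that passed the filter in both comparisons, placed by its log2 ratio of TPM + 1, 8505C over FTC-133 (x axis), and by its role (rows); filled points are libraries with CRABP1, open points those with vector, and members are large and named. WNT7B (3.47 and 2.61), WNT5B (2.79 and 1.82) and DKK1 (2.66 and 2.64) lie to the right of 2-fold (dashed), and most cytoplasmic core genes lie between the dashed lines.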

How the data were processed

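Total RNA from 4 libraries, 1 per group, was extracted with Trizol and sequenced from Illumina libraries, per the labels' protocols. The authors deposited TPM values, reads per gene divided by gene length and scaled to a sum of 1000000 in each library. FastQC, Trimmomatic 0.38, featureCounts 2.0.0 and GRCh38 were used per the submitters' processing notes; the aligner, annotation and strandedness were not given in the sources used here. Columns were matched to samples by title.

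TPM multiplied by GENCODE 29 exon length gave whole read numbers, after division by a constant for each library, for 90.5% to 91.6% of values up to 50 reads (tolerance 0.02). These read numbers are approximate where a gene's length differs from that release, as for WNT3, WNT5B, WNT7B, DKK1 and TCF7. They served for 95% intervals and floors of 3 reads, which cover counting error only.

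Folds and ratios given with an interval were plain TPM ratios, without a pseudocount or filter. Log2 ratios and the 2-fold rule used log2 of TPM plus 1, over genes averaging 1 TPM or more across the libraries set against each other. Limma with a trend was fitted to the same values with line and transfection as terms, leaving 1 residual degree of freedom. That residual is the difference between the lines in their response to CRABP1, moderated over genes, and may be technical in part. It is the error behind each SE and p-value of this fit and is not a spread between replicates. P-values were two-sided and Benjamini-Hochberg adjusted over all genes. Since this difference serves as the error, no degrees of freedom are left to test it, and it was not tested. Named genes were all members and pathway genes past 2-fold with CRABP1 with at least 20 reads. The 3 most abundant per role and up to 5 per role that differed most between lines were named too. AXIN1, MYC, KREMEN1, FZD3 and FBXW11 were named after their values were seen, to complete the calls or gene groups given. Pathway lists, members and markers were chosen with earlier results of these data known. Alternatives were a pseudocount of 0.1, other filters, median-ratio scaling, removal of mitochondrial genes, a 1.5-fold rule, no trend and no term for the other factor. Upstream sequences came from RefSeq (GRCh38.p14). Python 3.11.15, pandas 2.3.3, NumPy 2.4.6, SciPy 1.17.1, R 4.3.3 and limma 3.58.1 were used.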

Additional observations from a re-analysis of the deposited data

Results flagged for a closer look

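Of the 10 members, WNT5B was singled out because its difference with CRABP1 had opposite directions in the lines with both counting intervals off 1: the fold was 0.672 in FTC-133 and 1.39 in 8505C. Of 18 pathway genes, members included, with both intervals off 1, 9 had the same direction in both lines (TCF7, PORCN, SFRP1, FBXW11, CCND1, MYC, CD44, EDN1 and SOX9) and 9 had opposite directions. How all genes split by this rule was not computed, so these counts are not a result about the pathway. Median-ratio scaling moved the median log2 ratio of all genes in FTC-133 from 0.055 to -0.006. Directions of folds near 1 there, such as CCND1 (1.045) and RYK (1.074), may depend on the scaling, which was not tested for these genes. BMP4 had folds of 0.295 in FTC-133 and 1.29 in 8505C, and TLE4 of 0.275 and 1.19. CTNNB1 had folds of 0.826 in FTC-133 and 1.19 in 8505C, and FZD6 of 0.851 and 1.11. BCL9L (1.24 in FTC-133 and 0.923 in 8505C), VEGFA (1.16 and 0.861), GSK3B (1.10 and 0.890) and RYK (1.07 and 0.919) went the other way. The difference between the lines was not tested for any of these genes, since each fold rests on 1 library per group.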

How the results depend on the processing

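Replicates could not be paired because each group held 1 library and the labels carry no replicate numbers. The only pairing was by line, since the line term of limma sets CRABP1 against vector within each line. Leaving out a library leaves no residual degrees of freedom. No called value of a member changed sign. Of the member log2 ratios under the alternatives, 131 differed from the main value by no more than the counting interval reaches. Another 7, of DKK3, WNT5A and WNT7B, differed by more. DKK3 between the lines with vector went from -1.051 to -0.901 with median-ratio scaling. The count of members past 2-fold with CRABP1 in FTC-133, 0, became 1 with a pseudocount of 0.1 and 1 without mitochondrial genes (WNT7B, log2 ratios down to -1.49), and 3 at 1.5-fold; in 8505C the count of 1 became 0 at 5 TPM, where WNT5A was filtered out. Pathway genes past the threshold in FTC-133 numbered 4, and 8 with the smaller pseudocount, 2 at 5 TPM and 17 at 1.5-fold; in 8505C 1 became 0 at 5 TPM. All-gene counts at 5 TPM were 591 in FTC-133 and 218 in 8505C for CRABP1 against vector, and 3184 with vector and 3279 with CRABP1 between the lines. At 1.5-fold they were 4526, 2638, 10228 and 10253 in the same order, and without a filter 2279 in 8505C. Median-ratio scaling moved the median log2 ratio of all genes between the lines from -0.169 to -0.026 with vector and from -0.207 to -0.022 with CRABP1, and left 4 and 5 members past 2-fold. Limma for CRABP1 called 0 genes when the line term or the trend was dropped, when medians set the scale, when the filter was lifted, and when 0.1 replaced 1 as the pseudocount. Between the lines it called 6877 genes and 6 members, and 1182 genes and 1 member (DKK1) without a filter, where adjusted p was 0.0578 to 0.105 for the other 5. TCF7 was also lost without the transfection term (adjusted p = 0.0761) and WNT5A without a trend (0.0631). Depth limits AXIN2, WNT7A and LEF1, with 90, 11 and 4 reads over all libraries.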
